A study of Mus musculus with 2 samples.

Results

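The 3 longest unbroken stretches of low 5-hydroxymethylcytosine (5hmC) signal on the mouse autosomes are described here. On the mm9 build they lie on chromosome 15 from 13300001 to 25200000, on chromosome 1 from 108700001 to 119500000, and on chromosome 14 from 88000001 to 98200000. They span 11.9, 10.8 and 10.2 Mb, or 32.9 Mb together, and are 3 of the 326 low runs of at least 1 Mb on the autosomes. They were chosen by the measured ratio of antibody library to input library in 100 kb bins of these same libraries. A run is a row of neighbouring 100 kb bins that each hold at least 50 input fragments, a log2 ratio below -0.5 and an interval below 0. That the ratio is low inside them is therefore no finding, and the ratios below are a description. Cut into 50 kb bins, the domains give 658 of the 49453 autosomal bins, and 657 of them hold the 25 input fragments required of a bin here.

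The data are 2 libraries of genomic DNA from whole kidney of male C57BL/6 mice aged 6 weeks. The hMeDIP library (hydroxymethylated DNA immunoprecipitation) holds fragments pulled down with an Active Motif antibody against 5hmC, and the input library holds DNA from the same kind of kidney taken without antibody. Neither the number of animals behind each library nor whether both came from the same animals is stated in the labels. In all, 11424027 fragments came from the hMeDIP library and 8316507 from the input library. There is 1 library of each kind, so no difference below has a replicate check or a test. Intervals are 95% intervals for counting error only, and, with no molecular identifiers, a read cannot be taken as an independent molecule.

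TET enzymes make 5hmC by oxidising 5-methylcytosine, and the mark is usually richest in the bodies of active genes and at enhancers. Long gene-poor stretches of the genome, called gene deserts, are usually poor in it. The antibody recovers fragments by the 5hmC they carry, so the assay is relative: a ratio of 1 means the mean of all fragments of these libraries, and a low ratio does not give an amount of 5hmC per cytosine. Mitochondrial DNA, the small circular genome in the mitochondria, is present in many copies per cell. Whether it carries modified cytosines at all is disputed, which makes it a natural sequence to set beside nuclear DNA with little signal.

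The chromosome 15 domain lies in the gene desert of the type II cadherins, a family of calcium-dependent cell adhesion proteins. The gene table at hand, from RefSeq, is of another build (GRCm38.p6), so it was used for the order of genes only and no gene was placed against a domain edge. In that order, 6 entries classed as protein-coding stand between Cdh6 and Basp1 on chromosome 15: Cdh9, Cdh10, Cdh12, Acot10, Cdh18 and Hnrnpa1l2-ps2. Of these, Cdh9, Cdh10, Cdh12 and Cdh18 are type II cadherins known mainly from the nervous system. Between Bcl2, an inhibitor of apoptosis, and Tsn on chromosome 1 there are 19 such entries. They include 12 genes of the Serpinb cluster of protease inhibitors, the type II cadherins Cdh7 and Cdh19, and Cntnap5a, a neurexin-like cell surface protein. Between Tdrd3 and Mzt1 on chromosome 14 there are 5: the protocadherins Pcdh20 and Pcdh9, Spertl, Klhl1 and the transcription factor gene Dach1. Whether each gene lies inside a domain or beside it was not tested.

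The domains were alike in level. The chromosome 15 domain held 14264 hMeDIP and 37361 input fragments (ratio 0.278, 0.273 to 0.283). The chromosome 1 domain held 12940 hMeDIP and 32218 input fragments (ratio 0.292, 0.286 to 0.298). The chromosome 14 domain held 12534 hMeDIP and 32653 input fragments (ratio 0.279, 0.274 to 0.285). The intervals of chromosomes 15 and 14 overlap, and that of chromosome 1 lies just above both. Pooled, the domains held 39738 hMeDIP and 102232 input fragments (ratio 0.283, 0.280 to 0.286). The deficit was in the antibody library. A 50 kb bin of the chromosome 15, 1 and 14 domains held a median of 55, 56 and 57 hMeDIP fragments, against a median of 181 over the autosomes. Its median input count was 157, 151 and 161 fragments, against 178 over the autosomes.

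Among the 326 long low runs, ranked from the lowest ratio, the chromosome 15 domain was 9, the chromosome 14 domain 10 and the chromosome 1 domain 22. The longest runs were thus near the low end without being the lowest. The other 323 runs, which cover 781.5 Mb, had a pooled ratio of 0.371 (0.370 to 0.371). The pooled ratio of the domains was 0.763 times that value (0.754 to 0.772). The other runs had a median length of 1.9 Mb, so more of their sequence lies near an edge. In the domains the ratio was 0.513 in the outermost 100 kb and 0.268 beyond 2 Mb from an edge. What part length has in this gap and in the ranks was not tested.

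The 50 kb bins inside were nearly all low. Of 657 bins, 656 were low (log2 ratio below -0.5 with its interval below 0), namely 237 of 238 on chromosome 15, 215 of 215 on chromosome 1 and 204 of 204 on chromosome 14. Of all 46669 autosomal bins, 49.0% were low. No bin of the domains was high (log2 ratio above 0.5 with its interval above 0), against 22.6% of autosomal bins. A log2 ratio below -1 was found in 638 bins of the domains, against 36.1% of autosomal bins. Since 100 kb bins of the same ratio set the domains, nothing is read from these counts beyond how the finer bins fill them.

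**Figure D1:**
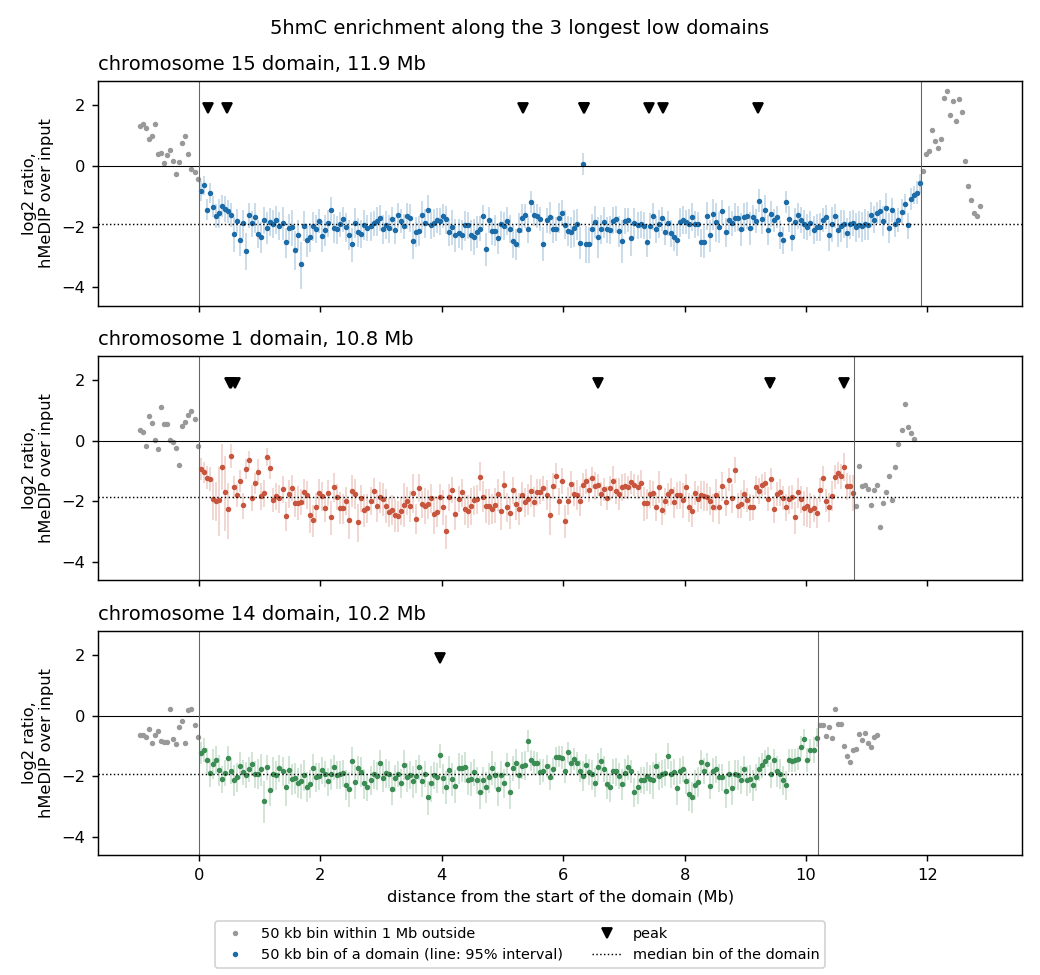
Log2 ratio of hMeDIP over input (vertical axis) in 50 kb bins against distance from the start of each domain in Mb (horizontal axis), with 95% counting intervals as thin lines, bins within 1 Mb outside in grey, peaks as triangles and the median bin as a dotted line. Bins lie close to medians of -1.91, -1.86 and -1.92 on chromosomes 15, 1 and 14, 1 bin on chromosome 15 reaches 0.06, and the grey bins after the end on chromosome 1 stay low for 700 kb.

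The median bin had a log2 ratio of -1.91 on chromosome 15, -1.86 on chromosome 1 and -1.92 on chromosome 14. The middle 90% of bins ran from -2.51 to -1.30 on chromosome 15, from -2.45 to -1.06 on chromosome 1 and from -2.41 to -1.33 on chromosome 14. The distributions lie nearly on top of each other, with a somewhat longer upper tail on chromosome 1. The SD over bins was 0.386, 0.416 and 0.350 on chromosomes 15, 1 and 14, against 1.11 over all autosomal bins. The choice of the domains left out high 100 kb bins, so their smaller SD is in part built in. Counting error alone accounts for SDs of 0.229, 0.235 and 0.225, which leaves excess SDs of 0.310, 0.344 and 0.268. The median excess SD of the other long low runs was 0.382. Ranked from the most even, the domains were 59, 106 and 24 among the 326 runs, so that even the chromosome 14 domain was not the most even of its kind. Shorter runs hold a larger share of margin, and the part of length in these ranks was not tested.

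**Figure D2:**
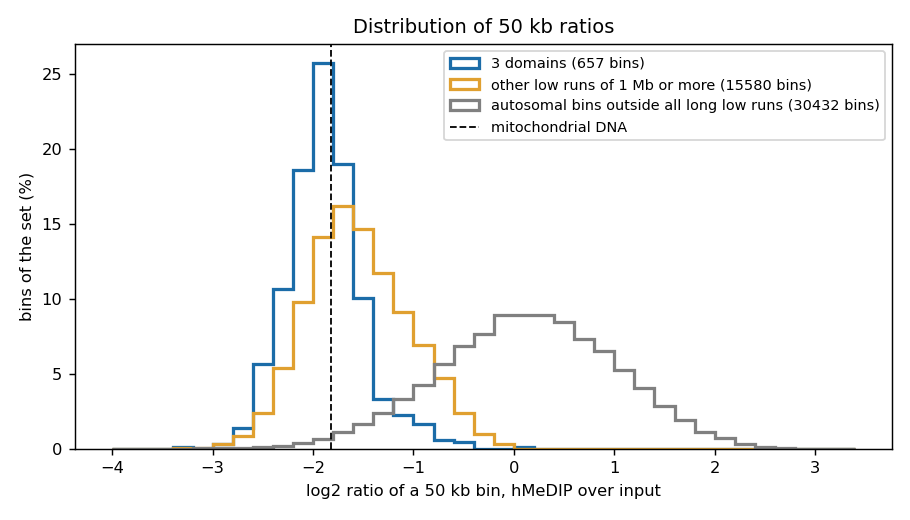
Share of 50 kb bins in percent (vertical axis) by log2 ratio of hMeDIP over input (horizontal axis) for the domains and for other autosomal bins, with mitochondrial DNA as a dashed line. The bins of the domains lie in a narrow range, with SDs of 0.386, 0.416 and 0.350 on chromosomes 15, 1 and 14. The SD over all autosomal bins, the domains included, was 1.11. The choice of the domains by low ratio narrowed their range.

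The margins held much of this excess. Without the outer 1 Mb at each end, the excess SD was 0.235 over 198 bins on chromosome 15, 0.282 over 176 bins on chromosome 1 and 0.210 over 164 bins on chromosome 14. The inner steps of 1 Mb are all but the first and the last step, so some reach into the outer 1 Mb. Their log2 ratio stayed between -2.11 and -1.77 on chromosome 15, -2.15 and -1.64 on chromosome 1, and -2.05 and -1.62 on chromosome 14. The -1.62 is from the step from 97000001 to 98000000, which lies within 1 Mb of the right edge. The next highest on chromosome 14 was -1.64, from 93000001. The lowest of the inner steps began at 14300001 on chromosome 15, 111700001 on chromosome 1 and 92000001 on chromosome 14. The correlation of neighbouring 50 kb bins, a description over bins that share both libraries, was 0.24, 0.27 and 0.41 on chromosomes 15, 1 and 14. Without the outer 1 Mb it was 0.00, 0.18 and 0.23. Counting error is a large part of the SD over bins and lowers such correlations.

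The lowest bins lay at different distances from the edges. On chromosome 15 the lowest was 14950001 to 15000000, with 18 hMeDIP and 124 input fragments, for a log2 ratio of -3.24 (-4.04 to -2.52). It was followed by the bins from 14050001 (29 hMeDIP and 146 input fragments, log2 ratio -2.79) and from 14850001 (26 and 129, -2.77). All of them are in the first 2 Mb of the domain. On chromosome 1 the lowest bins began at 112750001 (33 hMeDIP and 190 input fragments, log2 ratio -2.98), 111300001 (27 and 127, -2.69) and 114700001 (36 and 165, -2.65). On chromosome 14 they began at 89050001 (22 hMeDIP and 113 input fragments, log2 ratio -2.82), 91750001 (34 and 161, -2.70) and 96100001 (39 and 183, -2.69). None of these bins lacked input, so a low count of hMeDIP fragments set each value.

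The bin from 19600001 to 19650000 on chromosome 15 was the exception among the 657. It held 165 hMeDIP and 115 input fragments, which gives a log2 ratio of 0.06 (-0.29 to 0.42), and was the only bin of the domains that was not low. Its excess sat in 1 corner. The last 10 kb, from 19640001 to 19650000, held 108 hMeDIP and 9 input fragments (ratio 8.74, 4.43 to 19.6). The 10 kb before that held 26 hMeDIP and 30 input fragments (ratio 0.631, 0.358 to 1.10). The mean of this domain was 12.0 hMeDIP and 31.4 input fragments per 10 kb. Both a high hMeDIP count and thin input thus set the ratio of the last 10 kb. Next to this bin, the 50 kb on the left had a ratio of 0.174 (0.118 to 0.250) and the 50 kb on the right 0.168 (0.109 to 0.251), both below the domain's own mean. These steps were looked at because the bin stood out. Listed peaks held 45 of its hMeDIP and 2 of its input fragments. Without them the log2 ratio was -0.37, so more than the listed peaks is enriched there.

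The other high bins were mostly at or near the margins. On chromosome 15 the bins from 25150001 (169 hMeDIP and 182 input fragments, log2 ratio -0.56) and from 13350001 (170 and 193, -0.64) are the last bin of the domain and the second. On chromosome 1 the highest bins began at 109200001 (107 hMeDIP and 111 input fragments, log2 ratio -0.51), 109800001 (178 and 187, -0.53) and 109500001 (172 and 194, -0.63). They cluster near the start of the domain. In the first of them peaks held 39 hMeDIP and 4 input fragments, and without these the log2 ratio was -1.11. On chromosome 14 the highest bins began at 98150001 (167 hMeDIP and 201 input fragments, log2 ratio -0.73), 97950001 (160 and 197, -0.76) and 93400001 (113 and 146, -0.83). Only the last of these is in the middle of its domain.

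Peaks were rare inside. The authors' list of 92654 peaks, called with MACS, placed 8 on chromosome 15, 6 on chromosome 1 and 1 on chromosome 14, or 15 in all. That is 0.672, 0.556 and 0.098 peaks per Mb and 0.456 per Mb pooled, against 37.3 per Mb over the autosomes. Of the domains' bins, 13 (1.98%) held the midpoint of a peak, against 45.9% of autosomal bins. The other 323 long low runs held 970 peaks, or 1.24 per Mb, and 33 of them held no peak. Ranked from the fewest peaks per Mb, the domains were 98, 80 and 34 among the 326 runs on chromosomes 15, 1 and 14. The header of the peak list names hMeDIP with a range of numbers that nothing explains, and whether the peaks were called on these hMeDIP fragments alone is not known. Their rarity is not taken as support for the low ratio.

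**Figure D3:**
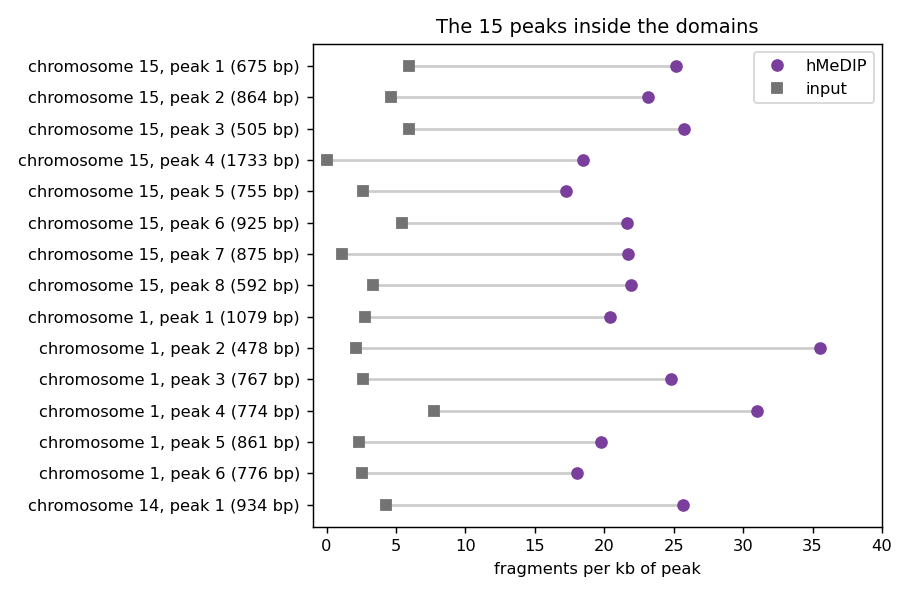
Fragments per kb of peak (horizontal axis) in the hMeDIP library (circles) and the input library (squares) for each of the 15 peaks inside the domains (vertical axis), joined by grey lines. The hMeDIP value lies to the right of the input value in every peak, on counts of 13 to 32 hMeDIP and 0 to 6 input fragments.

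On chromosome 15 the strongest peak by the authors' score was the one from 19640275 to 19642007, with a score of 108.08. It held 32 hMeDIP and 0 input fragments, so at a floor of 3 input counts it was at least 7.77-fold higher in hMeDIP, while the lower 95% limit of its ratio was 5.96. At 1733 bp it was also the widest of the 15. The peak next to it, 19644003 to 19644757, held 13 hMeDIP and 2 input fragments (ratio 4.73, 1.07 to 43.2). Both lie in the corner of the exceptional bin described above and hold 45 of the 108 hMeDIP fragments of that corner.

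The other peaks of chromosome 15 each lay at least 196 kb from any other. Near the left edge, the peak from 13454087 to 13454761 held 17 hMeDIP and 4 input fragments (ratio 3.09, 1.01 to 12.6), and the peak from 13753044 to 13753907 held 20 and 4 (3.64, 1.22 to 14.6). The peak from 18630761 to 18631265 held 13 hMeDIP and 3 input fragments (3.15, 0.867 to 17.3), the only interval of the 15 that reaches 1. Further right, 20706207 to 20707131 held 20 hMeDIP and 5 input fragments (2.91, 1.06 to 9.93). With so few input fragments, these peaks cannot be put in order of strength. The peak from 20937309 to 20938183 held 19 hMeDIP fragments and 1 input fragment (13.8, 2.20 to 575), and that from 22509839 to 22510430 held 13 and 2 (4.73, 1.07 to 43.2).

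On chromosome 1, 3 of the 6 peaks crowded into a short stretch near the left end. The first, 109214823 to 109215901, held 22 hMeDIP and 3 input fragments (ratio 5.34, 1.60 to 27.9). The second, 109233240 to 109233717, held 17 hMeDIP fragments and 1 input fragment (12.4, 1.94 to 517) and had the highest score of all 15, 132.01. The third, 109300199 to 109300965, held 19 hMeDIP and 2 input fragments (6.92, 1.67 to 61.2). This crowd borders on bins where input was thin, down to 21 fragments in a 50 kb bin between 108900001 and 109200000. The part of uneven mapping in these peaks was not tested. The other peaks of chromosome 1 were far apart. They were 115278765 to 115279538 with 24 hMeDIP and 6 input fragments (2.91, 1.16 to 8.71), 118101342 to 118102202 with 17 and 2 (6.19, 1.47 to 55.2), and 119320862 to 119321637 with 14 and 2 (5.10, 1.17 to 46.2).

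The chromosome 14 domain held a single peak, 91970370 to 91971303. It had 24 hMeDIP and 4 input fragments (ratio 4.37, 1.501 to 17.3), and a score of 95.68.

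As a group the 15 peaks were narrow and of low score. Their median width was 776 bp, against 1152 bp over the list, and 14 were narrower than the list's median. Their median score was 57.94, against 85.72, and 10 scored below the list's median. Pooled, they held 284 hMeDIP and 41 input fragments (ratio 5.04, 3.63 to 7.18) against 5.27 in the other autosomal peaks. Since a peak caller picked all these regions for enrichment, a high ratio in them is no finding. The domains were chosen for low ratios, so the sequence around a peak cannot show where its enrichment ended. The 25 kb on each side of a peak, pooled, had ratios of 0.174 to 0.716, below 1 at all 15. Most were isolated, with 10 more than 100 kb and 5 more than 1 Mb from any other peak, and 6 lay within 1 Mb of an edge.

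The strands of the fragments in these peaks were less balanced than usual. In 6 of the 15 peaks at most 20% of hMeDIP fragments lay on the minor strand, against 9.28% of the autosomal peaks with 13 to 32 hMeDIP fragments. On chromosome 1, the first peak had 1 plus and 21 minus fragments, the second 16 plus and 1 minus, and the third 16 plus and 3 minus. On chromosome 14 the single peak had 4 plus and 20 minus fragments. On chromosome 15 the peak from 19640275 was mixed, with 12 plus and 20 minus, while the peak next to it had 2 plus and 11 minus and that from 22509839 had 11 plus and 2 minus. A fragment population recovered around a marked site usually gives both strands, and what a lopsided one comes from was not tested.

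The stretches without any peak were among the longest of the autosomes. The domains were chosen as the longest low runs, so long gaps between peaks inside them are in part built in. The longest in the chromosome 15 domain was 4.88 Mb, from 13753908 to 18630760, with a ratio of 0.248 (0.240 to 0.256), and ranked 15 among 92300 autosomal gaps between peaks. On chromosome 1 it was 5.98 Mb, from 109300966 to 115278764, with a ratio of 0.278 (0.270 to 0.286) and rank 5. On chromosome 14 it was 6.48 Mb, from 91971304 past the right edge to 98450438, with a ratio of 0.309 (0.301 to 0.316) and rank 4.

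The ratio depended on the distance to the nearest peak far less inside the domains than outside. At less than 1 kb from a peak, but not in it, the ratio was 0.392 in the domains and 1.35 in other autosomal sequence. At 10 to 25 kb it was 0.321 in the domains and 0.869 elsewhere, and at 100 to 250 kb 0.312 in the domains and 0.453 elsewhere. Outside peaks the ratio in the domains was highest at 1 to 2 kb from a peak, at 0.594 (0.437 to 0.807), where it was 1.40 elsewhere. Beyond 1 Mb from any peak the values came close, at 0.260 (0.255 to 0.265) in the domains and 0.285 (0.283 to 0.287) elsewhere, without their intervals meeting. These values describe the choice of the domains as well as the distance, and no test of the difference was made.

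At 5 of the 6 edges the ratio was lower inside than outside within 500 kb, by very unequal amounts. The same ratio set these edges, so a lower value inside is largely built in and the steps are a description. The step given here is the log2 ratio of the 500 kb outside minus that of the 500 kb inside. With these windows the right edge on chromosome 15 had the largest step, with -1.27 inside and 1.29 outside (step 2.56, 2.43 to 2.70). With windows of 200 kb its step was 1.41, below the 1.77 of the left edge on chromosome 1. The left edge on chromosome 1 had -1.28 inside and 0.37 outside (step 1.64, 1.47 to 1.81), and the left edge on chromosome 15 had -1.19 inside and 0.27 outside (step 1.46, 1.32 to 1.60). On chromosome 14 the sequence outside was itself below the genome-wide mean. Its left edge had -1.57 inside and -0.26 outside (step 1.30, 1.14 to 1.46), and its right edge -1.17 inside and -0.43 outside (step 0.74, 0.60 to 0.88).

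**Figure D4:**
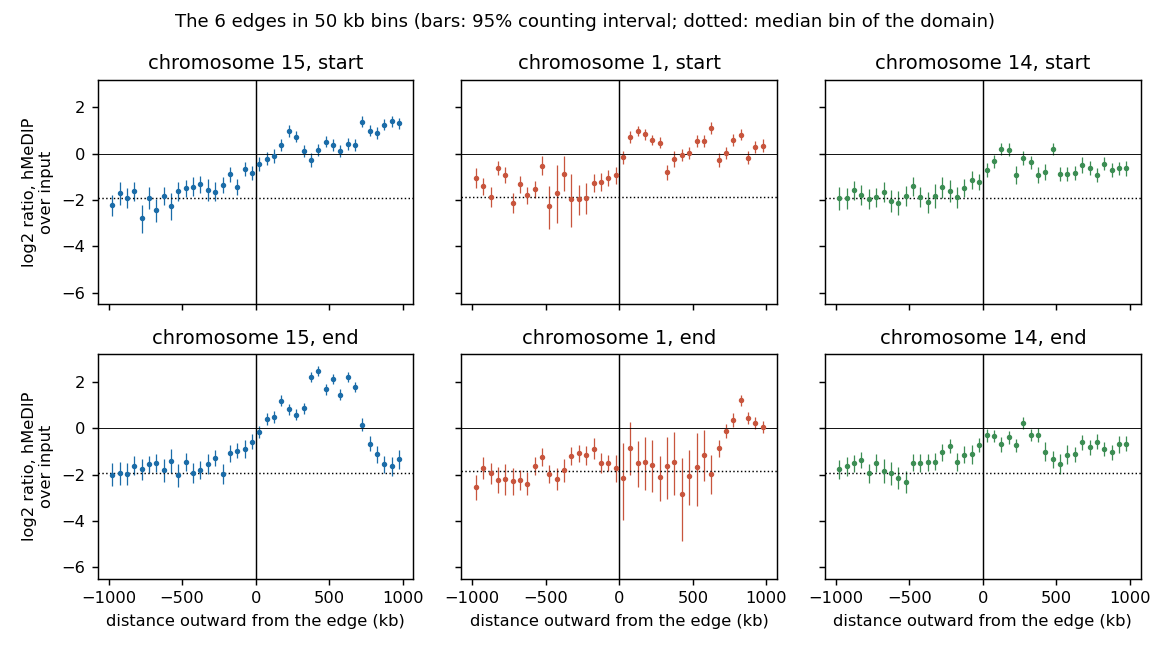
Log2 ratio of hMeDIP over input (vertical axis) in 50 kb bins against distance from each of the 6 edges in kb (horizontal axis), inside on the left. The right edge on chromosome 15 climbs to the highest level outside, and the right edge on chromosome 1 shows no climb until 700 kb outside.

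The right edge on chromosome 1 differed from the rest. Its log2 ratio was -1.48 in the 500 kb inside and -1.72 in the 500 kb outside, a step of -0.24 (-0.61 to 0.12). The run ended there because the first 100 kb bin outside held 18 hMeDIP and only 33 input fragments, below the minimum of 50, while its log2 ratio was still -1.33. Low ratios went on for 700 kb, from 119500001 to 120200000. In that stretch 4 of 7 bins held under 50 input fragments, and the whole had 252 hMeDIP and 474 input fragments (ratio 0.387, 0.331 to 0.452), and 0 peaks. The next 100 kb bin, from 120200001, held 488 hMeDIP and 322 input fragments, at a log2 ratio of 0.14. With the end moved there the domain is 11.5 Mb long and the step is 1.995, so this edge marks where the input ran thin and not where the ratio climbed.

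The 100 kb bins on either side of the edges lay as follows to the threshold of -0.5. The log2 ratios were -0.73 inside and -0.31 outside at the left edge on chromosome 15, and -0.70 inside and 0.14 outside at its right edge. They were -0.99 inside and 0.35 outside at the left edge on chromosome 1. At its right edge they were -1.55 inside and -1.33 outside, the pair set by thin input. On chromosome 14 they were -1.19 inside and -0.49 outside at the left edge, just short of the threshold, and -0.87 inside and -0.32 outside at the right edge.

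On the inner side the climb was gradual in the pooled values, but not at every edge. Pooled over the 6 edges, the ratio was 0.513 in the outermost 100 kb inside, 0.427 at 100 to 200 kb, 0.351 at 200 to 500 kb, 0.303 at 500 to 1000 kb and 0.265 at 1 to 2 Mb. Beyond 2 Mb from an edge it was 0.268. These pooled values hide differences between edges. The ratio fell inward at every step to 2 Mb at both edges on chromosome 15 and the left edge on chromosome 14. The left edge on chromosome 1 had 0.292 at 200 to 500 kb, where input was thin, and 0.412 at 500 to 1000 kb. Its right edge had 0.341 in the outermost 100 kb and 0.432 at 100 to 200 kb. The right edge on chromosome 14 had 0.411 at 100 to 200 kb and 0.422 at 200 to 500 kb. The interior differed too. On chromosome 1 the 1 Mb from 111700001 had a ratio of 0.225 (0.209 to 0.243) and the 1 Mb from 114700001 a ratio of 0.321 (0.301 to 0.342). Outside, the pooled ratio was 0.928 in the first 100 kb, 1.32 at 100 to 200 kb, 1.40 at 200 to 500 kb, 1.27 at 500 to 1000 kb and 0.981 at 1 to 2 Mb. The right edge on chromosome 15 weighs heavily in the pooled flanks, with a ratio of 3.10 at 200 to 500 kb. At that distance the left edges of chromosomes 15 and 1 had 1.35 and 1.09, the right edge on chromosome 1 had 0.262, and the left and right edges on chromosome 14 had 0.761 and 0.732. The chromosome 14 flanks were lower still at 500 to 1000 kb, with 0.616 on the left and 0.544 on the right. Going inward, the first 50 kb bin at or below the domain's median began 550 and 200 kb from the left and right edge on chromosome 15, 200 and 400 kb on chromosome 1, and 350 and 500 kb on chromosome 14. Going outward, the first bin with a ratio of at least 1 began 150 and 50 kb from the edge on chromosome 15, 50 and 750 kb on chromosome 1, and 100 and 250 kb on chromosome 14.

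Peaks began soon after most edges. The first listed peak outside lay 1.26 kb from the right edge on chromosome 15 and 9.03 kb from the left edge on chromosome 1. It lay 42.2 kb from the left edge on chromosome 15 and 88.6 kb from the left edge on chromosome 14. It was farthest at the right edges of chromosomes 14 and 1, at 251 and 739 kb. The 500 kb outside held 23 and 62 peaks at the left and right edge on chromosome 15, 29 and 0 on chromosome 1, and 8 and 3 on chromosome 14. Ordered by these counts, the edges stand in the same order as by the step over 500 kb, but not over 200 kb. Fragments in these peaks also enter the step, so the orders are not independent.

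The domains and mitochondrial DNA had the same ratio within counting error. Beside the 39738 hMeDIP and 102232 input fragments of the domains (ratio 0.283), mitochondrial DNA held 2653 hMeDIP and 6830 input fragments on a span of 16620 bp, a ratio of 0.283 (0.270 to 0.296). The pooled ratio of the domains over it was 1.001 (0.955 to 1.05). By domain it was 0.983 (0.936 to 1.03) on chromosome 15, 1.03 (0.984 to 1.09) on chromosome 1 and 0.988 (0.941 to 1.04) on chromosome 14. All these intervals hold 1, but they cover counting error only. They do not show that the levels are equal, nor bound the difference under other ways of counting. Of the 657 bins, 390 (59.4%) had a ratio below that of mitochondrial DNA, and the interval lay above it in 63 bins and below it in 64.

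The match in mean is sensitive to how fragments are counted. Of the occupied mitochondrial positions, 26.3% held more than 1 read in hMeDIP and 36.3% in input. Weighted by reads, the pooled ratio was 0.281 in the domains and 0.263 (0.253 to 0.273) in mitochondrial DNA, so that the domains lay above it, at 1.07 times (1.03 to 1.11). The core of the domains, beyond 2 Mb from an edge, was in contrast at 0.949 times the mitochondrial ratio by fragments (0.905 to 0.995). Both departures are small beside the other long low runs, whose pooled ratio was 1.31 times that of mitochondrial DNA (1.25 to 1.37).

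Within mitochondrial DNA the ratio varied widely. It was cut into 17 stretches of 1 kb, the last of them shorter (16001 to 16620). Of these, 14 held enough input to be measured. Their ratios ran from 0.0840 (5001 to 6000, with 9 hMeDIP and 78 input fragments) to 0.625 (4001 to 5000, with 383 and 446), with a median of 0.238. The extremes were neighbours. The SD of the log2 ratio over these stretches was 0.859, of which counting error accounts for 0.266. Evenness was not compared with the domains, whose input of a few fragments per kb allows no ratio at this scale. The stretch from 7001 to 9000 held 0 fragments in hMeDIP and 0 in input, so no ratio exists there. The intervals of 5 stretches lay below the pooled ratio of the domains and those of 3 above it, and no peak was listed.

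**Figure D5:**
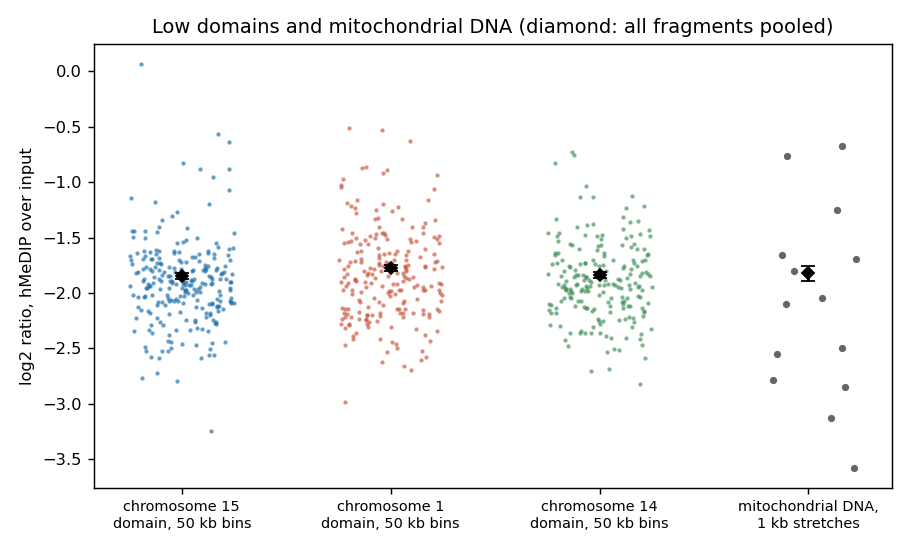
Log2 ratio of hMeDIP over input (vertical axis) of the 50 kb bins of each domain, of 1 kb stretches of mitochondrial DNA, and the pooled value of each. The pooled values, drawn as diamonds, lie between -1.85 and -1.77. The 1 kb mitochondrial stretches had an SD of 0.859, which cannot be compared with the spread of the 50 kb bins.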

How the data were processed

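The deposited position files of the hMeDIP and input libraries list stretches of 350 bp, each with its strand and a read count. CASAVA, Bowtie 1.0.0 and the build mm9 are named, per the submitters' processing notes, without alignment settings, read filters or how reads were extended. From the values alone, each line was read as 1 fragment and its count as the reads sharing it. Lines of another length numbered 18 in hMeDIP and 163 in input. Per the file headers, MACS called the deposited peaks. Its version, control and threshold are not stated there, the track line leaves unclear whether other libraries entered, and the score is the authors' own, used to rank and filter within the list.

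Fragments were assigned to 50 kb bins, peaks and domains by midpoint. A ratio is the hMeDIP share over the input share of all fragments of the library. Its 95% interval is the exact binomial one (Clopper-Pearson) on the hMeDIP part of both counts. Intervals of steps and of ratios between ratios are normal on the log scale. The excess SD is the root of the variance over bins less the counting variance. Bins needed 25 input fragments. Median coverage was 181 hMeDIP and 178 input fragments per autosomal bin. The calculations were tested on simulated data. Python 3.11.15, numpy 2.4.6, scipy 1.17.1, pandas 2.3.3 and matplotlib 3.10.9 were used.

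The domains, lists and thresholds were chosen with earlier results of these data known. The regions named are the domains and their edges, the 3 highest and 3 lowest bins of each domain by ratio, every peak inside, and the nearest peak outside each edge. Alternatives were other scalings, weighting by reads, shorter fragments, single strands, other bin and window sizes, other peak rules, and leaving out peaks or thin input. Coordinates are 1-based on mm9. No sequence is printed.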

Additional observations from a re-analysis of the deposited data

Results flagged for a closer look

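Positions that held more than 1 read count once in the fragment ratios above and enter only the values weighted by reads. They made up 0.687% (0.608 to 0.773) of the hMeDIP positions in the domains, above 0.274% (0.243 to 0.308) of the input positions. In other autosomal sequence the shares were 1.33% in hMeDIP and 0.336% in input. The excess of hMeDIP over input was thus smaller in the domains than elsewhere, and whether the difference in depth between the libraries plays a part was not tested.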

How the results depend on the processing

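Of 91 values recomputed under an alternative, 62 kept their direction and stayed within the spread set for them, 27 moved and 2 reversed. The counts of low bins stayed within 1.5 times under every alternative tried. Scaling to the fragments outside peaks shifted every log2 ratio, mitochondrial DNA included, by 0.40 and gave -1.45, -1.37 and -1.44 for the domains of chromosomes 15, 1 and 14. Leaving out the outer 1 Mb, chosen after seeing the data, gave -1.94, -1.84 and -1.92, and excess SDs of 0.235, 0.282 and 0.210. In 25 kb bins the excess SDs were 0.401, 0.408 and 0.367, and in 100 kb bins that of chromosome 15 was 0.269. Among the peaks with scores in the upper part of the list, split at its median, 1 was left on chromosome 15 and 3 on chromosome 1. Edge steps moved as follows. The left edge on chromosome 15 had 0.87 with windows of 200 kb, 2.14 with 1 Mb and 1.25 without fragments in peaks. The right edge there had 1.41 with 200 kb and 1.62 without fragments in peaks, and the left edge on chromosome 1 had 1.33 without them. The right edge on chromosome 1 turned from a negative step to 1.79 with windows of 1 Mb, which reach past the thin input, and to 1.995 with its end moved, a setting chosen after seeing the data. The domain ratio over the mitochondrial ratio was 1.05, 1.11 and 1.05 weighted by reads, and 0.932, 0.980 and 0.937 without lines near the ends of the mitochondrial sequence. For the other moves the cause was not tested. No paired analysis was possible because there is 1 library of each kind and no result comes from a test.

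Counting error limits single peaks and bins most: a peak rests on 0 to 6 input fragments, and a median bin of the domains on 55 to 57 hMeDIP fragments. Spread between animals or between libraries is not in any interval.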

Other observations

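Windows of 1 kb with at least 10 hMeDIP fragments, a threshold chosen after seeing the data that takes no account of input, were counted outside and inside peaks. In all, 105 of 32900 windows (0.319%) in the domains reached it, against 14.5% of windows in other autosomal sequence. Of these, 17 (16.2%) overlapped a listed peak, against 46.3% elsewhere. Those outside peaks ranged from enriched to not enriched. The window from 25065001 to 25066000 on chromosome 15 held 23 hMeDIP and 4 input fragments, close to the right edge. The window from 19646001 to 19647000 on chromosome 15, beside the paired peaks of the exceptional bin, held 16 hMeDIP and 0 input fragments. On chromosome 1, 109489001 to 109490000 held 18 hMeDIP and 3 input fragments. In contrast, 113390001 to 113391000 on chromosome 1 held 14 hMeDIP and 12 input fragments (ratio 0.849, 0.365 to 2.01), and 25071001 to 25072000 on chromosome 15 held 14 and 11 (0.927, 0.391 to 2.26).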
